A study of Mus musculus with 6 samples.

Results

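The 5022 array probes described here each test 1 strand of a stretch of mouse genome that the array design names only by its coordinates, and they are called long intergenic RNA region probes. They were chosen by a detection flag: a non-control probe whose name is a chromosome, a position range and a strand letter, and whose spot the scanner software marked as well above background on all 6 arrays. They made up 31.0% of the 16181 such probes on the array, which holds 55681 different probes in all. The members fell in 2106 of 3540 regions and on 2583 of 4607 region strands, with 2499 probes on the forward strand and 2523 on the reverse strand.

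RNA was taken on postnatal day 0 from the whole testes of males of mixed FVB.129/Sv background, with 2 animals per genotype and 1 array per animal. VSKO animals carried Vasa-cre with 1 deleted and 1 floxed Sin3a allele. HEMI animals carried Vasa-cre with 1 deleted and 1 wild-type Sin3a allele, and WT animals carried Vasa-cre with 2 wild-type alleles, so all 6 animals had the Cre transgene. Vasa (Ddx4 or Mvh) is a germ cell gene, and its promoter places the recombinase in germ cells, whereas the RNA came from the whole organ. In such bulk samples a fall through fewer cells of a type and a fall through less RNA per cell cannot be told apart.

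Long intergenic RNAs are transcripts made between protein-coding genes, commonly spliced and polyadenylated like messenger RNA but not translated. They tend to be scarce and to be made in few tissues, and the testis is known for transcribing many of them. Where both strands of a stretch are transcribed, the 2 RNAs are separate products, which a strand-specific probe can keep apart. SIN3A, the protein of the gene targeted here, is a scaffold of histone deacetylase complexes that act on chromatin.

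The sequences that the results turn on are the 60-base probes themselves, printed 5′ to 3′ as the files give them, which is the sense of the RNA each one detects. The first set holds members that passed the test between VSKO and WT, with positions in mouse genome build mm9 (NCBI37). Capitals mark AATAAA or ATTAAA, the hexamers of polyadenylation signals.
A_30_P01017668, chr6:90760118-90760177, forward: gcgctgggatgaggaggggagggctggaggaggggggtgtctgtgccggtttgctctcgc
A_30_P01024849, chr2:168136428-168136487, reverse: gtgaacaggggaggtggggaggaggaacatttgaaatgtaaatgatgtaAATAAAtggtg
A_30_P01020369, chr2:94092066-94092125, reverse: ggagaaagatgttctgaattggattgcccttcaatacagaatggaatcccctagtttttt
A_30_P01018509, chr2:94092138-94092197, reverse: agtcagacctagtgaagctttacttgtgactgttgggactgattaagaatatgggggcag
A_30_P01030416, chr1:90340592-90340651, reverse: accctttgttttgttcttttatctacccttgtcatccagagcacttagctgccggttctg
A_30_P01031943, chr17:22422619-22422678, reverse: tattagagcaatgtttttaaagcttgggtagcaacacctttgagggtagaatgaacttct
A_30_P01021770, chrX:121004364-121004423, reverse: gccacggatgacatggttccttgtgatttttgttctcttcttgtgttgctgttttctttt
Of these 7 probes, A_30_P01024849 holds AATAAA and the others hold neither hexamer. Among all members 224 probes (4.46%) held AATAAA, against 3.92% of all region probes, and 2.11% against 2.47% held ATTAAA. The reverse complement of AATAAA was in 2.99% of members and 3.02% of all region probes.

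The second set shows why the strands can be separated: 2 pairs of members in which the forward and the reverse probe of a region cover the same bases. Capitals mark the stretch that each probe shares, as a reverse complement, with its partner.
A_30_P01030106, chr5:34713032-34713091, forward: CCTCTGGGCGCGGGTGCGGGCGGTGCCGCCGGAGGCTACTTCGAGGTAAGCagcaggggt
A_30_P01027463, chr5:34713023-34713082, reverse: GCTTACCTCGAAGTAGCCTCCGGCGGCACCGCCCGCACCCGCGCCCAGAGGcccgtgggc
A_30_P01020276, chr12:119841357-119841416, forward: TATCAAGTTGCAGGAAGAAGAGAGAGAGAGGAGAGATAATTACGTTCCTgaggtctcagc
A_30_P01029802, chr12:119841346-119841405, reverse: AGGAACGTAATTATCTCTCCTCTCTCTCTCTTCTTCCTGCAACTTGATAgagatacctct
The array held 1943 such pairs of opposite probes overlapping by at least 20 bases, and in 1935 of them the overlapping bases were exact reverse complements. All 16063 region probes with a listed position lay inside the region of their name and on its strand. The other 118, 38 of them members, had no listed position.

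Signal level and the share of detected spots differed little between arrays. The samples themselves were less alike: the skeletal muscle and erythroid lists, given below, differed widely between animals. The 75th percentile of processed signal over non-control spots, to which each array was scaled, ran from 652.2 to 857.1 intensity units, and between 59.2% and 64.53% of spots were well above background. No spot was saturated, and the 6 arrays shared 1 slide and 1 scan. The VSKO and HEMI arrays lay in slide row 1 and the WT arrays in row 2, so slide row and genotype cannot be told apart in comparisons with WT. The germ cell, Sertoli cell and fetal Leydig cell markers on the array were above background on all 6 arrays (8 of 8, 7 of 7 and 5 of 5). The Sin3a probe read 0.61 and 0.38 in VSKO, 0.89 and 0.89 in HEMI, and 1.09 and 1.11 in WT on the log2 scale used throughout, on which 0 is the 75th percentile. Its 3 genotypes did not overlap, and VSKO minus WT was -0.60 ± 0.13 (SE, adjusted p = 0.147), which did not pass. Germ cells are a part of the organ, and where that probe lies relative to the deleted exons is not given in the sources used here.

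Region probes were detected less often than the rest of the array. On no array was the signal of 7832 region probes (48.4%) above background, against 23.3% of the 39500 other non-control probes, and 64.8% of the other probes reached the mark on all 6 arrays. The remaining 3327 region probes were above background on 1 to 5 arrays, 1368 of them on 1 array alone. By array, 7021 and 6301 region probes were above background in VSKO, 6457 and 6601 in HEMI, and 6225 and 5582 in WT. The second WT array was the lowest and the first VSKO array the highest. Of the 492 probes just outside the rule, above background on 5 arrays, 281 (57.1%) missed on the second WT array alone. Their mean log2 signal ran from -5.54 to -3.27 with a median of -4.91. The 20 members nearest the limit, by their smallest margin over the lowest signal called above background on an array, had means of -5.30 to -4.38.

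**Figure D1:**
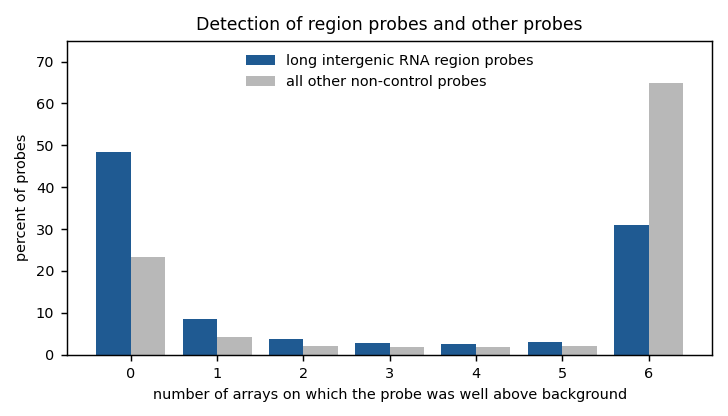
Percent of probes (y axis) by the number of arrays, from 0 to 6, on which the probe was well above background (x axis), for 16181 region probes (blue) and 39500 other non-control probes (grey). Most probes of both kinds sat at 0 or 6 arrays, with 48.4% of region probes at 0 and 31.0% at 6, against 23.3% and 64.8% of the others.

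Detected region probes were dim. Their mean log2 signal had a median of -2.92 and quartiles of -3.96 and -1.22, and it ran from -5.31 to 7.83. Other probes detected on all 6 arrays had a median of -0.11. A probe's level also depends on how well it hybridises, so these are distributions of readings and not of transcript numbers. The median over the members was between -2.98 and -2.81 on every array. The 2 animals of a genotype differed by a median of 0.25 log2 units in VSKO, 0.18 in HEMI and 0.22 in WT, and by more among the dimmest 25% of members (0.29) than among the brightest 25% (0.15).

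**Figure D2:**
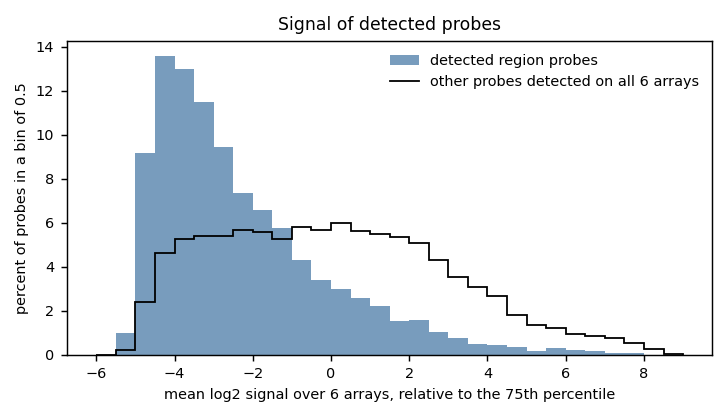
Percent of probes (y axis) in bins of 0.5 of the mean log2 signal over the 6 arrays relative to the 75th percentile (x axis), for the 5022 detected region probes (filled) and the other probes detected on all 6 arrays (line). The filled distribution peaks near the detection limit, between -4.5 and -4.0 with 13.6% of members, while the line is flat and extends to higher signal.

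The brightest members read close to the top of the array, and several shared their letters with probes for such genes. The 5 with the highest mean signal were A_30_P01026458 (7.59 to 7.98 over the 6 arrays), A_30_P01020015 (7.36 to 7.74), A_30_P01030669 (7.44 to 7.77), A_30_P01022075 (7.51 to 7.69) and A_30_P01031448 (6.85 to 7.70). Their 3 genotypes overlapped or lay within 0.49 log2 units of each other, and none passed in any comparison. A_30_P01026458, named for chr11:22681800-22707775, shared 45 bases in a row with the probe for Rps16, a protein of the small ribosomal subunit. A_30_P01030669, on chr7:108209996-108216032, shared 28 bases with the probe for Rps29, another protein of that subunit. A_30_P01022075 lies in chr17:17481706-17482457, where the design also places a probe for Oaz1, the antizyme that limits polyamine synthesis. A_30_P01020015 (chr17:39982023-39983277, forward) shared 57 bases with a probe named BC031453. A_30_P01022075 and A_30_P01031448 shared no such stretch of at least 25 bases. A_30_P01031448 lies in chr14:78924115-78938125, and 83.3% of its bases are G or C. The lower end of that region is 10.8 kb from the nearest Akap11 probe. The 3 dimmest members were A_30_P01030345 (-5.64 to -4.79), A_30_P01028921 (-5.54 to -4.97) and A_30_P01031064 (-5.82 to -4.89), next to the detection limit.

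Shared letters were more common among members than among other region probes. Of the 5022 members, 138 (2.75%) shared at least 25 bases in a row, in the same sense, with a probe of another name, against 91 of 11159 other region probes (0.815%). Among the 50 brightest members the count was 10. The reverse complement was shared by 64 members (1.27%) and 74 other region probes (0.663%). The signal of such a probe can come from either transcript, and this was not tested further.

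Base composition went with detection as well. The median share of G and C was 45.0% in members, with quartiles of 41.7% and 53.3%, and 43.3% in region probes detected on no array, with quartiles of 36.7% and 45.0%. Of the 4196 region probes with at most 38.3% G and C, 22.6% were members. The share was 26.4% between 40.0% and 45.0%, and 50.7% among the 3725 probes with at least 46.7%. G and C also raise the strength of hybridisation, so base composition and transcription cannot be told apart here. The share of region probes that were members ran from 25.4% on chromosome 9 to 38.4% on chromosome 17, with 36.8% on chromosome 5 and 29.8% on the X chromosome.

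Not every region was free of named genes. Region lengths ran from 62 to 7128487 bases with a median of 7315.5, and 10769.5 for regions holding a member. A probe for a protein-coding gene of the same strand lay inside 158 of the 2583 member strands (6.12%) and inside 45 of the other region strands (2.22%). On the opposite strand such a probe lay inside 98 member strands (3.79%) and inside 65 of the other region strands (3.21%), which are similar shares. Among the member strands 895 overlapped another member strand, so some regions are nested, and probes of nested regions can read the same transcript. No genome annotation of build mm9 was used here, so whether a probe is exonic or intronic is not given.

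Both strands of a region were often detected. Of the 1067 regions with probes to both strands, 477 (44.7%) had members on both, 214 on the forward strand alone, 231 on the reverse strand alone, and 145 on neither. The reverse strand had a member in 69.0% of regions whose forward strand had one, and in 61.4% of those whose forward strand had none. In the 2473 regions with probes to 1 strand only, 1184 (47.9%) had a member. Of the 1943 overlapping opposite pairs of single probes both probes were members in 215, 1 of the pair in 783, and neither in 945.

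The 2 overlapping pairs printed above give a reading for each strand over the same bases. The readings of a pair come from different probes, so each is compared only with itself across genotypes. On chr12:119825125-119850750 the forward probe A_30_P01020276 read 6.55 and 6.67 in VSKO, 6.57 and 6.58 in HEMI, and 6.67 and 6.67 in WT. Its reverse partner A_30_P01029802, sharing 49 bases, read 1.70 and 1.85 in VSKO, 1.74 and 1.49 in HEMI, and 2.06 and 1.96 in WT. Neither passed in any comparison, and the forward probe differed between genotypes by at most 0.09. On chr5:34696192-34722842 the forward probe A_30_P01030106 read 2.16 and 2.87 in VSKO, 2.80 and 2.84 in HEMI, and 3.45 and 3.21 in WT. The reverse partner A_30_P01027463, with 51 shared bases, read 2.34 and 2.87, 2.67 and 2.68, and 3.28 and 2.80 in the same order. Both strands there were lower in VSKO than in WT, by 0.82 ± 0.26 (adjusted p = 0.256) and 0.44 ± 0.25 (adjusted p = 0.492), and neither difference passed.

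Set against WT, the VSKO testes, in which both germ cell copies of Sin3a were targeted, differed in 14 members that passed: 3 were higher in VSKO and 11 lower. The largest changes were an 11.2-fold higher signal of A_30_P01017668 on chromosome 6 and a 7.64-fold lower signal of A_30_P01020369 on chromosome 2. In limma's moderated test with Benjamini-Hochberg adjustment over all 34367 probes tested, 250 probes had an adjusted p under 0.05, or 0.727% of them, against 0.279% of members. The background was 0.276% higher and 0.451% lower. At an unadjusted p under 0.05 the shares were 14.7% of all probes and 11.6% of members (583). The median difference was -0.05 over the members and 0.00 over all probes tested, and 200 members (3.98%) differed by more than 2-fold, against 6.11% of all probes. Of these 200 members 124 were higher and 76 lower in VSKO. Quantile normalization gave 12 calls, 4 higher and 8 lower. The number of calls also depended on the arrays fitted: 2 members passed when only the VSKO and WT arrays were used. That fit leaves each difference unchanged and has fewer residual degrees of freedom. All 14 called members kept their direction when any single array was left out. That outcome was fixed beforehand, because the VSKO and WT animals did not overlap in any of them. Whether single animals made the calls was not tested.

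**Figure D3:**
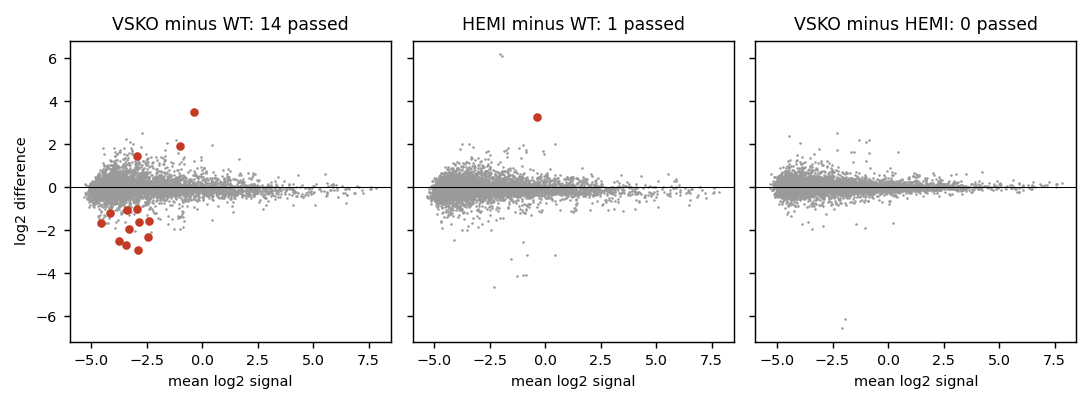
Log2 difference between genotypes (y axis) against the mean log2 signal over the 6 arrays (x axis) of the 5022 members in each comparison, with members that passed in red. There are 14 red points for VSKO minus WT, 1 for HEMI minus WT and 0 for VSKO minus HEMI, and the largest grey differences in the HEMI panels belong to probes whose animals of 1 genotype disagreed.

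HEMI against WT, the comparison for loss of 1 copy of Sin3a, gave 1 member that passed, the same chromosome 6 probe as above and again higher than WT. The background was 42 of 34367 probes (0.122%), and 12.3% at an unadjusted p under 0.05 against 11.1% of members (557). The median member difference was -0.08, against -0.01 over all probes. VSKO against HEMI, the comparison for the second copy among carriers of 1 deleted allele, gave 0 members by limma. The background there was 30 probes (0.0873%), and at an unadjusted p under 0.05 it was 7.57% of all probes and 5.24% of members (263). The median member difference was 0.04, which turned to -0.03 when arrays were scaled to their medians. Members past 2-fold numbered 149 (2.97%) in the first of these comparisons and 58 (1.15%) in the second, against 4.21% and 3.46% of all probes. The comparisons share their HEMI or WT arrays, so their values are given side by side and not as separate evidence.

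The detection rule leaves out a probe that drops below background in any animal. Another 1384 region probes were tested without being members. They entered the fit through a genotype in which both animals were above background, which can favour probes that differ. Of them 22 (1.59%) passed in VSKO minus WT, 3 (0.217%) in HEMI minus WT and 4 (0.289%) in VSKO minus HEMI, and nothing is read from these shares.

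A_30_P01017668, the forward probe at chr6:90745692-90777977, read 0.64 and 1.09 in VSKO, 0.62 and 0.70 in HEMI, and -2.45 and -2.80 in WT. Both carrier genotypes were high and WT low, with no overlap between WT and the others. VSKO minus WT was 3.49 ± 0.21 (adjusted p = 0.0197) and HEMI minus WT 3.29 (adjusted p = 0.0223), while VSKO minus HEMI was 0.20 (adjusted p = 0.999). The other 2 members on the same strand did not follow it. A_30_P01033667 differed by -0.02 between VSKO and WT and A_30_P01017841 by -0.29. The probe is rich in G and C (70.0%). The named probes nearest to the region are those of Iqsec1, an exchange factor for ARF GTPases, and Nup210, a nuclear pore protein. They lie 105.9 kb and 185.1 kb from its ends. Neither gene passed, with Nup210 at -0.75 (adjusted p = 0.0982).

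The other 2 members higher in VSKO were also high in HEMI. A_30_P01024849, the only probe of the short region chr2:168136389-168136560, read -0.56 and -0.23 in VSKO, -0.47 and -0.16 in HEMI, and -2.46 and -2.15 in WT. It was 3.75-fold higher in VSKO than in WT (adjusted p = 0.0377), and HEMI minus WT was 1.99 (adjusted p = 0.0635). A_30_P01019099 on the reverse strand of chr4:147105275-147171025 read -2.34 and -2.41 in VSKO, -2.67 and -2.61 in HEMI, and -3.98 and -3.70 in WT, a 2.76-fold difference (adjusted p = 0.0338). Its neighbours on that strand leaned the same way without passing: A_30_P01020257 by 1.66 (adjusted p = 0.0958) and A_30_P01028476 by 0.98 (adjusted p = 0.137). The region spans a cluster of zinc finger genes. The probes for Zfp984 and the pseudogene Smarca5-ps inside it differed by 0.13 and 0.15, and neither passed.

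The clearest fall with more than 1 probe behind it was on the reverse strand of chr2:94082835-94101939. A_30_P01020369 read -4.47 and -4.50 in VSKO, -2.60 and -2.83 in HEMI, and -1.71 and -1.40 in WT, so the 3 genotypes were separate and HEMI lay between the others. VSKO minus WT was -2.93 ± 0.17 (adjusted p = 0.0154). VSKO minus HEMI was -1.78 (adjusted p = 0.0695) and HEMI minus WT -1.16 (adjusted p = 0.113), neither of which passed. The neighbouring A_30_P01018509 read -4.05 and -4.46, -3.30 and -3.51, and -2.37 and -2.23 in the same order, and passed at -1.96 ± 0.19 (adjusted p = 0.0336). All 60 bases of A_30_P01020369 recur in a probe at another spot, named for the transcript ENSMUST00000129661. That probe read -3.83 and -4.33 in VSKO, -2.83 and -2.93 in HEMI, and -1.81 and -1.55 in WT, and also passed at -2.40 (adjusted p = 0.0307). The remaining member of the strand, A_30_P01017843, differed by -0.34 (adjusted p = 0.326). Of the 5 forward probes of the region none was a member. The named genes nearest to the region were Ttc17, 39.0 kb from its end, and Hsd17b12, a hydroxysteroid dehydrogenase, 209.1 kb from its end. They differed by 0.14 and 0.09 without passing.

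On chromosome 17, 3 members that fell lie in a nest of regions on the reverse strand among zinc finger genes. A_30_P01031943, in chr17:22420025-22457650, read -5.00 and -4.51 in VSKO, -4.37 and -4.11 in HEMI, and -2.25 and -2.27 in WT (VSKO minus WT -2.50 ± 0.21, adjusted p = 0.0307). A_30_P01030657 and A_30_P01020914, in the surrounding chr17:22335458-22466521, differed by -2.31 (adjusted p = 0.0389) and -1.63 (adjusted p = 0.0377). In all 3 HEMI lay near VSKO, with HEMI minus WT at -1.98, -1.99 and -1.69 (adjusted p = 0.0657, 0.0982 and 0.0635). The WT animals were the high ones and did not overlap with either carrier genotype. Next to these, A_30_P01032823, A_30_P01029664 and A_30_P01027624 differed by -1.70, -2.01 and -1.45 between VSKO and WT without passing (adjusted p = 0.0571, 0.113 and 0.0999), and A_30_P01030119 by -0.35. On the forward strand of the inner region A_30_P01018656 and A_30_P01024662 differed by 0.24 and -0.02. A_30_P01030657 shares 33 bases with the probe for Zfp994, a zinc finger gene inside the outer region. The Zfp994 probe with those bases differed by -0.48 (adjusted p = 0.487), and the Zfp994 probe of highest signal by 0.22 (adjusted p = 0.558).

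In several members that fell HEMI lay nearer to WT. A_30_P01030416 on chr1:90340543-90359181 read -4.61 and -5.31 in VSKO, -3.05 and -2.99 in HEMI, and -2.45 and -2.14 in WT. It fell by 2.67 in VSKO against WT (adjusted p = 0.0338), while a second member of the strand, A_30_P01029637, differed by -0.57 (adjusted p = 0.164). A_30_P01024746, on the same strand, read -3.70 and -1.16 in the 2 VSKO animals and -2.96 and -2.83 in WT. A_30_P01021770 on chrX:121004130-121007360 read -5.58 and -5.46 in VSKO, -4.32 and -4.28 in HEMI, and -3.97 and -3.76 in WT. VSKO was the low group, and its difference from WT was -1.65 ± 0.14 (adjusted p = 0.0307). The VSKO readings of this probe lay close to the lowest signals called above background on those arrays, -5.81 and -5.57. With another background correction (normexp) the difference was -0.53 and did not pass (adjusted p = 0.0997). A_30_P01029174 lies on chr13:28700385-28760363, a region whose higher end is 280.5 kb from a probe for Sox4, a developmental transcription factor gene. This member read -3.53 and -3.58 in VSKO, -2.67 and -2.78 in HEMI, and -2.57 and -2.57 in WT. It fell 1.98-fold (adjusted p = 0.0494).

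Among the remaining members that fell is A_30_P01033331 on chr5:100845342-100869667. The higher end of that region is 1.5 kb from a probe for Lin54, a DNA-binding subunit of the MuvB complex. A_30_P01033331 fell by 1.59 log2 units (adjusted p = 0.0485). Other members of its strand differed by between -0.71 and 0.13, and none of the region's 10 forward probes was a member. A_30_P01025010 lies on chr6:127111250-127142925. The lower end of that region is 12.5 kb from a probe for Ccnd2, the gene of cyclin D2. Its higher end is 19.4 kb from a probe for the non-coding gene 9330179D12Rik. A_30_P01025010 fell 2.05-fold (adjusted p = 0.0425). It did not pass with median scaling, quantile normalization or normexp (adjusted p = 0.0516, 0.0537 and 0.0613). Its 4 sister members on the strand differed by -0.47 to -0.68 without passing.

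A_30_P01029733 on chromosome 18, in chr18:5808025-5818625, fell 2.28-fold (adjusted p = 0.0432), and 2 other members of its strand differed by 0.08 and 0.03. The named gene nearest to the region was Zeb1, a transcription factor of the epithelial to mesenchymal transition. A probe for it lay 33.4 kb from the region's lower end, and Zeb1 was at -0.24 (adjusted p = 0.541).

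**Figure D4:**
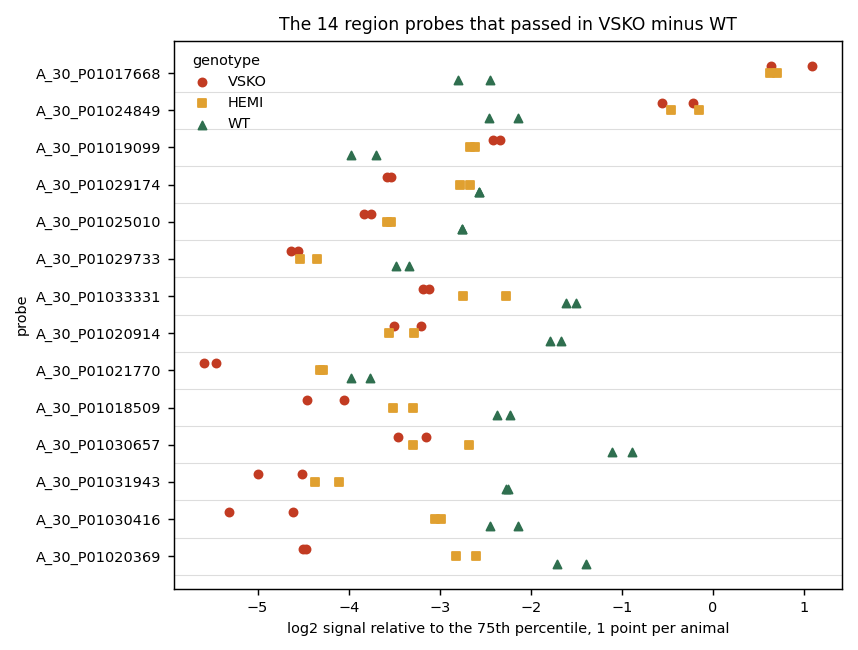
Log2 signal relative to the 75th percentile (x axis) of the 14 members that passed in VSKO minus WT (y axis, by probe name), with 1 point per animal for VSKO (circles), HEMI (squares) and WT (triangles). VSKO and WT are apart in every row, and HEMI lies with VSKO in the upper 3 rows and between the other genotypes or near one of them below.

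Probes with the largest test statistics that did not pass were of the same kinds. In VSKO minus WT, A_30_P01018612 on chr1:173353316-173367449 read 0.86 and 1.33 in VSKO, 0.93 and 1.38 in HEMI, and -0.70 and -1.04 in WT (adjusted p = 0.0541). A_30_P01031850 on chr8:57994310-57999085 read -2.39 and -2.35 in VSKO against -3.94 and -3.88 in HEMI and -3.54 and -3.95 in WT (adjusted p = 0.0517 against WT and 0.0854 against HEMI). In the former both carrier genotypes stood above WT, and in the latter VSKO stood above both others. For HEMI minus WT, A_30_P01026164 on chr12:81217572-81233910 differed by 1.20 and A_30_P01018386 on chr17:41231055-41249764 by -1.32 (adjusted p = 0.0982 and 0.0832). For VSKO minus HEMI, A_30_P01026236 on chr5:106982442-107045717, inside which lies a probe for the zinc finger gene Zfp644, differed by 1.25 (adjusted p = 0.0702), A_30_P01029022 by 1.18 (adjusted p = 0.0926) and A_30_P01019857 by 0.95 (adjusted p = 0.118). A_30_P01032582 differed by 2.38 (adjusted p = 0.152) with 1 VSKO reading, since an outlier spot left the second VSKO animal without a value. The lower side was led by probes already described, with A_30_P01021770 at -1.22 (adjusted p = 0.0854), A_30_P01030416 at -1.94 (adjusted p = 0.118) and A_30_P01029174 at -0.83 (adjusted p = 0.135). A_30_P01029228 on chromosome 18 differed by -1.68 (adjusted p = 0.153).

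Members on 1 strand of a region moved together mainly where the difference was large. Over the 1235 strands with at least 2 members, all members differed in the same direction in 56.4% of strands for VSKO minus WT, 59.5% for HEMI minus WT and 48.5% for VSKO minus HEMI. Where the mean difference of a strand exceeded 0.5 log2 units the counts were 144 of 160, 133 of 142 and 63 of 69 strands. The threshold was set on the same values, so these counts describe the strands and test nothing. The SD between members of a strand had a median of 0.16, 0.15 and 0.13 in the 3 comparisons.

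The 2 strands of a region showed little relation. Across the 477 regions with members on both strands, the difference of the forward strand against that of the reverse strand had a Pearson r of 0.08 for VSKO minus WT, 0.12 for HEMI minus WT and 0.14 for VSKO minus HEMI. The signs were equal in 57.4%, 65.8% and 55.1% of regions. These are descriptions across regions, whose points share the same arrays. In the 213 overlapping pairs of exact reverse complements with both probes detected, r was 0.08, 0.15 and 0.19. When the within-array difference of forward minus reverse signal was tested between genotypes, 0.0% of the 477 regions passed in each comparison by limma. At an unadjusted p under 0.05 the shares were 11.9% (57 regions), 8.39% (40) and 4.4% (21). The counts rose to 5, 3 and 0 regions with another background correction (normexp), and to 6, 0 and 0 with a variance trend.

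**Figure D5:**
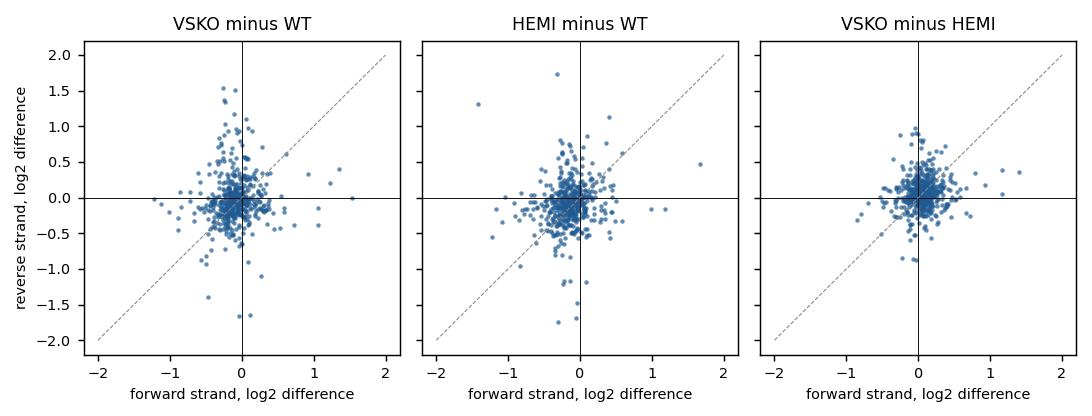
Log2 difference between genotypes of the forward strand (x axis) and the reverse strand (y axis) in the 477 regions with members on both strands, 1 point per region, 1 panel per comparison, with equality as the dashed line. Points scatter along both axes more than along the dashed line, and the Pearson r is 0.08, 0.12 and 0.14.

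The regions with the largest strand statistics were those of the single probes above and 1 more. At chr17:22420025-22457650 forward minus reverse signal was 4.16 and 3.95 in VSKO, 3.90 and 3.56 in HEMI, and 2.27 and 2.34 in WT. Its VSKO minus WT change was 1.75 ± 0.20 (adjusted p = 0.0556), made of a forward change of 0.11 and a reverse change of -1.64. At chr6:90745692-90777977 the same quantity was 0.27 and 0.17 in VSKO, 0.03 and 0.29 in HEMI, and -0.93 and -1.03 in WT, a change of 1.20 ± 0.18 (adjusted p = 0.0667) carried by the forward strand. At chr12:89448550-89461843, with 1 member on each strand, the forward strand changed by 0.28 and the reverse strand by -1.10 (difference 1.37 ± 0.20, adjusted p = 0.0667). In all 3 the carriers stood together and apart from WT, and HEMI minus WT changes were 1.43, 1.14 and 1.28 (adjusted p = 0.116 each). Between VSKO and HEMI the leading regions were chr5:106982442-107045717 (-1.03, adjusted p = 0.402), chr1:162965309-162970704 (0.97, adjusted p = 0.415) and chr17:88890039-88905680 (-0.93, adjusted p = 0.76). None of these changes passed. At chr17:88890039-88905680 the reverse mean of the second VSKO array lacks A_30_P01032582, so it covers fewer probes than on the other arrays.

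Some members differed widely between the 2 animals of 1 genotype. A difference over 4-fold between the 2 animals occurred in 32 members in VSKO (0.637%), 10 in HEMI (0.199%) and 4 in WT (0.0796%), 45 members in all, 1 of which had it in both VSKO and HEMI. These members were picked after their values were seen, and for these gaps, so the gaps are a description with no test. The largest group, 8 of the 45, lies on the reverse strand of chromosome 1 among interferon-inducible genes of the Ifi200 family, in the regions chr1:175653557-175671940, chr1:175654606-175672031 and chr1:175705225-175717250. In chr1:175654606-175672031 all 5 members showed the pattern. A_30_P01018941 read -4.36 and 0.06 in the 2 VSKO animals, -4.30 and -5.09 in HEMI, and 0.11 and -0.28 in WT. A_30_P01021838 read -2.93 and 1.08 in VSKO, -2.97 and -3.11 in HEMI, and 1.15 and 0.88 in WT. A single VSKO animal and both HEMI animals were low, and the other VSKO animal read like WT.

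Probes of other names in between included some with the same order of animals. A probe for Ifi204, a p200-family DNA sensor gene, read -4.88 and 2.02 in VSKO, -3.34 and -4.50 in HEMI, and 2.14 and 1.67 in WT. A probe named LOC100504287, inside chr1:175705225-175717250, read -3.86 and 0.15 in VSKO, -3.57 and -4.04 in HEMI, and 0.41 and -0.03 in WT. A probe for Ifi208 on the forward strand read 1.45 to 1.81 over the 6 arrays, with no such gap. Other members of the same regions lacked it. A_30_P01019537 read between -3.42 and -2.35 and A_30_P01027543 between -2.12 and -1.77 over the 6 arrays. None of the 8 members passed in the fit over all probes, with VSKO minus WT between -2.07 and -1.35 and HEMI minus WT between -4.61 and -2.56.

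Elsewhere the large gaps were mostly of single probes. A_30_P01023108 on chr7:26212709-26230775 read 8.29 in the second HEMI animal and between -4.40 and -3.54 in the other 5. A_30_P01024465 on chr5:22056218-22206995 read 8.55 in that same animal and between -4.47 and -3.97 in the rest. Each was the only member of its strand with such a gap, among 2 and 3 members. With 1 array per animal, a difference of the animal and one of the spot or array cannot be told apart. A_30_P01023874 on chr8:111766396-111772271 read 0.34 in the first VSKO animal and between -4.04 and -3.26 in the others. On chr13:94182877-94203852, 3 of 4 reverse members showed a gap, with A_30_P01026215 at -4.59 and -2.12 in the 2 WT animals.

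Of 50 named long non-coding RNAs listed for comparison, 33 were on the array, 26 were tested and 24 were detected on all 6 arrays. The median difference was 0.13 for VSKO minus WT, 0.04 for HEMI minus WT and 0.10 for VSKO minus HEMI. Platr26 was the only one of the 26 that passed in VSKO minus WT or HEMI minus WT, and 0 passed in VSKO minus HEMI. It was lower in both carrier genotypes and read -4.83 and -5.40 in VSKO, -5.10 and -4.75 in HEMI, and -0.36 and -0.57 in WT. Its differences were -4.65 (adjusted p = 0.0146) and -4.46 (adjusted p = 0.0142) against WT, and -0.19 between VSKO and HEMI (adjusted p = 0.999). H19, the imprinted fetal RNA, read between 6.55 and 7.26 on all arrays, and Meg3, another imprinted RNA, between 3.97 and 5.10. Neither passed in any comparison.

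Few cell type markers passed in the same comparisons, but the level of some lists differed between animals or genotypes. The germ cell list had a median VSKO minus WT difference of -0.34 with 0 of 8 genes passing, and array medians of 0.70 to 0.83 in VSKO, 0.73 to 0.98 in HEMI and 1.09 to 1.26 in WT. The fetal Leydig list had a median of -0.89 for VSKO minus WT and -0.999 for HEMI minus WT, with array medians of 3.86 to 4.15, 4.29 to 4.44 and 4.71 to 4.73 in VSKO, HEMI and WT. Of its 5 genes 1 passed: Cyp17a1, a steroidogenic enzyme gene, was lower in VSKO than in WT by 1.40 ± 0.17 (adjusted p = 0.0489).

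The skeletal muscle list, RNA of a tissue outside the testis, had a median of -1.25 for VSKO minus WT, 0.27 for HEMI minus WT and -2.08 for VSKO minus HEMI, with 0 of 7 tested genes passing. Its array medians ran from -2.28 to 0.50 in VSKO, 0.09 to 1.94 in HEMI and 0.38 to 2.51 in WT, so animals of 1 genotype differed widely. The erythroid list, with 0 of 3 tested genes passing, had a median of 0.73 for VSKO minus WT and 0.89 for VSKO minus HEMI. The second VSKO animal stood apart with an array median of 7.73, against 6.06 to 6.33 in the other 5. No Sertoli, peritubular, endothelial or macrophage marker passed in VSKO minus WT, and 1 of 6 mesonephric duct and rete markers was higher in VSKO. The part of these cell types in the member differences was not tested.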

How the data were processed

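Total RNA of 6 newborn mouse testes was amplified, labelled with Cy3 and hybridised to one-colour Agilent arrays, per the labels' protocols. Scanning output came from Agilent Feature Extraction 10.7.3.1 per the file headers, while the submitters' processing notes give 8.5.1.1. The deposited intensity values used are the processed signal that the scanner software gives for each spot, and the authors' value table equals these signals divided by the array median, as checked on the values. The deposited files also give a flag per spot (well above background, outlier, saturated), which is a code of 0 or 1.

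From these, log2 processed signal minus each array's 75th percentile over non-control spots was computed, outlier spots were left out, and spots of a probe were averaged. A probe entered the fit if 1 or more genotypes had it above background in both animals (34367 probes). limma 3.58.1 (R 4.3.3) was run on all 6 arrays, with 1 mean per genotype and Benjamini-Hochberg adjustment over all of them. With 3 residual degrees of freedom, 5 members that lack a value on an array through an outlier spot were fitted on the rest. The strand test used the within-array difference between the mean signals of the forward and reverse members of a region, adjusted over 477 regions. Both fits were tested on simulated data. The 6 arrays are few, which limits the precision of every difference.

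Named probes were those that passed, up to 10 per direction with separate replicates, those past that number, the 5 with the largest statistics in a direction with fewer than 5 calls, 3 strand leaders per comparison, and the 5 brightest and 3 dimmest. The members and lists were chosen with earlier results of these data known. Neighbouring genes are those whose probes the design places nearest, with symbols from a RefSeq gene table of assembly GRCm38.p6, which matched 26864 probes by accession and 3751 by symbol. Its coordinates were not used. Distances to neighbouring genes run from the end of the region, not from the member probe. Shared stretches of at least 25 bases and members with gaps over 4-fold were looked up after the differences were seen. Alternatives covered scaling, background correction, the filter on dim probes, 1 probe per gene, the variance model, the samples fitted, a replicate block, and leaving out each array.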

Additional observations from a re-analysis of the deposited data

How the results depend on the processing

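Of 664 values of named probes and strand leaders under the alternatives, none changed sign, 142 no longer passed and 39 passed only there. For VSKO minus WT the 14 member calls became 27 with normexp, 23 with a variance trend, 9 with 1 probe per gene, 2 with only the 2 groups fitted and 0 with no filter, and 0 to 4 when 1 array was left out. All 14 called members kept their direction in each of these fits that tested them. Fits with unchanged scaling and background correction could not alter it, since the VSKO and WT animals did not overlap. The calls were not equally stable. A_30_P01017668 and A_30_P01020369 also passed with median scaling, quantile normalization, normexp and a variance trend, and A_30_P01025010 passed with none of these. Among the same alternatives A_30_P01029174 passed with quantile normalization only, and A_30_P01029733 with median scaling only. With normexp the VSKO minus WT differences of all 14 were smaller in size. A_30_P01017668 was then at 2.895 (3.487 in the main fit), A_30_P01020369 at -1.769 (-2.933) and A_30_P01030416 at -1.264 (-2.669). The 1 call of HEMI minus WT became 10, 9 and 0 with normexp, a trend and no filter. It became 4 when tested only over probes detected on all 6 arrays. With only the HEMI and WT arrays fitted A_30_P01017668 did not pass (adjusted p = 0.0566), and the 1 member called was a different probe, lower in HEMI. Nor did A_30_P01017668 pass in any fit without 1 array. Its HEMI minus WT difference ran from 2.668 to 3.463 over all alternatives. VSKO minus HEMI gave 1 member with median scaling, with the authors' value table and with a trend, and 0 to 3 without 1 array. Strand differences gave 5 and 3 regions with normexp (VSKO and HEMI against WT), 6 with a trend for VSKO minus WT, 1 and 1 with the brightest probe of each strand, and 0 to 0 without 1 array. The replicate block left 2, 0 and 0 member calls; the numbers share no stated source, and same-numbered deviations correlated by 0.18, 0.05 and 0.03 over members, so they were not taken as pairs. The cause of these changes was not tested. Most members are dim, and their replicate spread limits what 2 animals can show.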
